A study of Homo sapiens with 12 samples.

Results

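LN229 cells kept for 24 hours in 10 mM glucose were compared with LN229 cells kept for 24 hours in 1 mM glucose. LN229 is an established human glioblastoma line. The comparison used the 8 of 12 libraries whose labels give either glucose dose with no acetate, 4 at each dose. The other 4 libraries, at 1 mM glucose with 5 mM acetate, took no part in the contrast. They entered the shared estimate of spread, the filter on low counts, the scaling and, for some genes, the choice of transcript. With the 8 libraries alone 14231 genes were tested. Both groups were grown to 80% confluence in 6-well dishes and then received RPMI with 10% dialyzed serum, so glucose was the labelled difference. Of 22257 genes in the files, 14416 passed the filter on low counts and were tested. The labels do not say that the replicates were separate cultures, so every p-value measures the spread between these libraries, which may be technical.

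Glucose feeds glycolysis, the pentose phosphate pathway and the hexosamine pathway, which makes the sugar donor for N-glycans and O-GlcNAc. Proteins of the secretory route take on N-glycans in the endoplasmic reticulum (ER), and when they fold poorly the unfolded protein response (UPR) raises chaperones through ATF6 and XBP1 and raises amino acid and stress genes through ATF4. Glucose 6-phosphate also activates the transcription factor MondoA, whose best known target is TXNIP, an inhibitor of glucose uptake.

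Total counts of the 8 libraries ran from 24.4 to 26.7 megacounts. Levels are CPM (counts per megacount, scaled by TMM), and fold changes are log2 values at 10 mM minus 1 mM with their standard error (SE). Among the 8, the library of 1 mM replicate 3 stood apart. Its deviation from the mean of all 12 libraries went with transcript length at a Spearman correlation of -0.487 over genes, against -0.179 to 0.229 in the other 7. Replicate 1 of the acetate group was alike (-0.481). The log2 change between the doses also went with length, at 0.194 over 14182 genes. These are descriptions, as genes are not replicates. Without 1 mM replicate 3, 9791 genes were called, against 9725 with it. Checked against markers of its tissue, the line had VIM at 5249 ± 535 CPM and NES at 452 ± 18.3 CPM at 1 mM (SD, n = 4), but GFAP, the defining astrocyte filament, had 18 to 34 counts per library, and the astrocyte genes AQP4 and SLC1A2 had 0 to 7. The tumour suppressor CDKN2A had 0 counts in all 8 libraries.

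Between the doses, 9725 of the 14416 genes were called (adjusted p under 0.05 in edgeR), which is 67.5% of genes tested. Of these, 4854 were higher at 10 mM (33.7%) and 4871 lower (33.8%). With a minimum of 2-fold, 1968 genes were called (13.7%), of which 986 were higher (6.84%) and 982 lower (6.81%). The 2 groups of libraries did not overlap in 8861 genes (61.5%). The even split did not extend to large changes. At 4-fold or more 107 genes were higher and 270 lower, at 8-fold or more 19 and 104, and at 16-fold or more 4 and 40. Among genes averaging at least 5 CPM the counts were 43 higher and 146 lower at 4-fold, and 3 and 50 at 8-fold. The division of all calls depends on scaling. With library totals the median gene moved up by 0.14 and 63.3% of calls were higher, whereas with length and GC trends removed it moved down by 0.13 and 38.3% were higher, against 49.9% in the main fit. The large decreases outnumbered the large increases under both: with library totals 137 genes were higher and 227 lower at 4-fold, and with the trends removed 76 and 304.

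**Figure D1:**
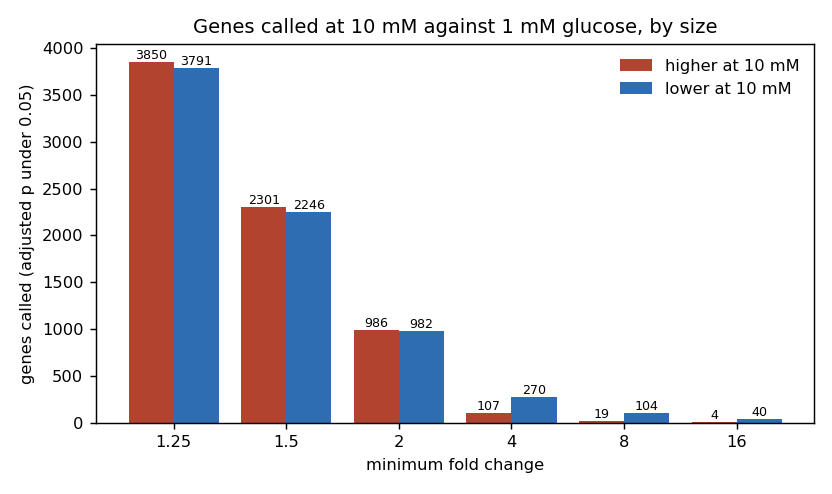
Number of genes called (edgeR adjusted p under 0.05) as higher (red) or lower (blue) at 10 mM glucose, against the minimum fold change on the horizontal axis. The bars are level up to 2-fold (986 and 982) and part from 4-fold on (107 and 270).

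The losses were also more concentrated than the gains when measured in CPM. HSPA5 by itself made up 5.28% of all CPM lost at 10 mM, and the 10 largest losers made up 15.6%, while the 10 largest gainers made up 6.59% of the CPM gained. It took 195 genes to reach 50% of the loss and 442 to reach 50% of the gain. These shares rest on TMM scaling, under which CPM summed to 1042397 at 1 mM and 944917 at 10 mM. They were not computed with library totals. By absolute level the largest losers were HSPA5, the actins ACTG1 (10286 ± 860 to 3542 ± 207 CPM, SD, n = 4) and ACTB (6899 ± 933 to 4923 ± 238 CPM), the ER chaperones HSP90B1, CALR and HYOU1, the elongation factor EEF2 and the protease inhibitor SERPINE2. The largest gainers were the matrix protein SPARC (1253 ± 133 to 2374 ± 38.9 CPM), LDHA, MKI67, PKM2, the tubulins TUBB and TUBA1B, the RNA-binding protein HNRNPA2B1 and the sulfate transporter SLC26A2 (151 ± 23.2 to 800 ± 58.3 CPM). In bulk RNA, fewer cells of a type and less RNA per cell cannot be told apart.

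TXNIP had the largest increase among genes averaging at least 5 CPM. Its levels were 5.94, 6.86, 6.28 and 7.42 CPM in the 4 libraries at 1 mM and 117, 119, 122 and 127 CPM at 10 mM. No library of either group came near the other group, and the increase was 18.3-fold (log2 4.19 ± 0.08, edgeR adjusted p = 9.4e-15). The other genes at 16-fold or more, named after their values were seen, were GRIN2B (4.27), FAM101A (4.31) and C10orf81 (4.69), all of lower abundance. The TXNIP promoter is shown because it holds the known type of glucose response element, a pair of E-boxes. It is the 250 bases before the gene's start in RefSeq, chr1:145996580-145996829 on the minus strand of GRCh38.p14, with the match in capitals 88 to 72 bases before the start.
TXNIP: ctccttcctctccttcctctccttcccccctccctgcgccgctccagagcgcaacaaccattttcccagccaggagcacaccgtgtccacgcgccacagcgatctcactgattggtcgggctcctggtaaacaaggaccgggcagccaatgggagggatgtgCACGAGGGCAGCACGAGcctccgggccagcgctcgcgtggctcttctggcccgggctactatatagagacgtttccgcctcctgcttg
The pattern searched was CACGNG and CNCGNG spaced by 5 bases, on both strands, and 0.424% of the 35116 promoters in the RefSeq table hold it. Among the tested genes that could be matched to a promoter 77 hold it, of which 26 were higher, 23 lower and 28 not called.

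The arrestin-domain relatives of TXNIP were divided. ARRDC4, like TXNIP a repressor of glucose uptake, rose from 2.03 ± 0.208 to 5.87 ± 0.266 CPM (log2 1.53 ± 0.11), whereas ARRDC3 fell from 94.4 ± 7.69 to 66.8 ± 2.87 CPM (-0.50 ± 0.06). MLX, the partner of MondoA, also fell (-0.35 ± 0.06). MLXIP, the gene of MondoA itself, rose (0.29 ± 0.11), and ARRDC1 and ARRDC2 were not called, all named after their values were seen. Of the 7 tested genes in the MondoA and arrestin-domain list, 3 were higher and 2 lower, a share called (71.4%) near the 67.5% of all genes.

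Of 7 glucose transporter genes tested 3 were lower and none higher, against 33.8% lower and 33.7% higher over all genes. SLC2A1 had 379, 350, 412 and 372 CPM at 1 mM and 196, 194, 210 and 196 CPM at 10 mM (log2 -0.93 ± 0.06), and SLC2A3 fell more (-1.64 ± 0.08). Every library at 10 mM was below every library at 1 mM for both. HK2, the hexokinase of growing cells, fell from 284 ± 34.9 to 127 ± 1.43 CPM (-1.16 ± 0.08). PFKFB4, which sets the level of a phosphofructokinase activator, rose (0.99 ± 0.06). Of 18 tested genes of uptake and upper glycolysis 5 were higher and 8 lower, with a median of -0.13 that turned to 0.01 with library totals. This share called (72.2%) was near the 67.5% of all genes. Of 14 genes of lower glycolysis and lactate export 8 were higher and 3 lower, with a median of 0.29. LDHA, which makes lactate, had 618, 655, 771 and 698 CPM at 1 mM and 1668, 1762, 1750 and 1853 CPM at 10 mM (1.36 ± 0.07). The aldolase ALDOC (1.11 ± 0.12), the lactate exporter SLC16A3 (0.97 ± 0.11) and PGK1 (0.51 ± 0.05) rose too. The genes that went the other way were the neuronal enolase ENO2 (-0.60 ± 0.07), the lactate carrier SLC16A1 (-0.37) and its chaperone BSG (-0.27), the last pair named after their values were seen. GAPDH, an enzyme of the same pathway, was 4503 ± 752 CPM at 1 mM and 4380 ± 230 CPM at 10 mM and was not called (edgeR adjusted p = 0.741). Its estimate was -0.04 in the main fit and turned to 0.10 with library totals and to 0.08 without 1 mM replicate 3, which had the highest GAPDH level of the 8 (5589 CPM).

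The hexosamine pathway was lower at 10 mM. Of its 12 tested genes 9 were lower and 1 higher, against 33.8% lower and 33.7% higher over all genes. By at least 2-fold 4 were lower, against 6.81% of all genes. GFPT1, the rate-limiting enzyme, had 387, 412, 318 and 398 CPM at 1 mM and 81, 83.3, 78.9 and 84.6 CPM at 10 mM. Its groups were well apart, and it fell 4.62-fold (log2 -2.21 ± 0.08, edgeR adjusted p = 6.1e-12). UAP1, which makes the activated sugar (-2.01 ± 0.05), and PGM3 (-1.17 ± 0.07) fell with it. The exception was MGEA5, the enzyme that removes O-GlcNAc, which rose from 84.8 ± 12.5 to 134 ± 5.45 CPM (0.66 ± 0.09). The summed level of the pathway went from 1771 ± 129 to 819 ± 9.48 CPM. Of 10 pentose phosphate genes 5 were lower and 2 higher, and none by 2-fold, a share called (70%) near the 67.5% of all genes. With library totals 3 were lower and 2 higher (median -0.01 in place of -0.16), and with length and GC trends removed 8 and 2 (-0.29). PGLS, TALDO1 and PGD of the oxidative and carbon-shuffling steps fell (-0.69 ± 0.12, -0.56 ± 0.07 and -0.36 ± 0.05), and PRPS2, which uses the pathway's ribose for nucleotides, rose (0.34 ± 0.06). N-glycan assembly was lower as well: of 44 tested genes 30 were lower and 4 higher. By 2-fold 5 were lower, against the same 6.81% of all genes. The pair GMPPA and GMPPB, subunits of the enzyme complex that makes the mannose donor, fell by -1.20 ± 0.08 and -1.33 ± 0.06. The oligosaccharyltransferase subunit OSTC fell by -1.22 ± 0.07. ALG10B, which adds the last glucose to the precursor and has a close relative, ALG10, that may share its reads, rose (0.58 ± 0.12).

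Of the gene lists described here, the ER chaperones lost the most CPM. Of 25 tested members 21 were lower and 3 higher, and 16 were lower by at least 2-fold, against 6.81% of all genes. Their summed level fell from 32362 ± 1054 to 8843 ± 70.1 CPM (SD, n = 4), which was 10.5% of all CPM lost by TMM scaling. HSPA5, the chaperone BiP, had 13549, 12831, 12463 and 13325 CPM at 1 mM and 1187, 1188, 1166 and 1192 CPM at 10 mM. The 4 libraries of each dose were close together, and the fall was 11-fold (log2 -3.46 ± 0.05, edgeR adjusted p = 4.2e-15). DNAJB9, a cofactor of BiP that feeds back on the UPR sensor IRE1, fell as far (-3.59 ± 0.07), and SDF2L1, another cofactor, fell by -2.67 ± 0.14. HSP90B1 (GRP94) had 6021, 5990, 5171 and 5933 CPM at 1 mM and 1798, 1865, 1759 and 1832 CPM at 10 mM (-1.67 ± 0.06). The lectin chaperone CALR fell by -1.35 ± 0.06 and the large chaperone HYOU1 by -2.34 ± 0.07. FKBP7, a prolyl isomerase of the ER, went the other way, from 4.88 ± 0.61 to 9.13 ± 0.646 CPM (0.90 ± 0.10).

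The HSPA5 promoter is shown because it carries the ER stress response element (ERSE), the sequence that ATF6 binds with NF-Y. It spans chr9:125241344-125241593 on the minus strand of GRCh38.p14 (RefSeq), and the ERSE is in capitals 66 to 48 bases before the start.
HSPA5: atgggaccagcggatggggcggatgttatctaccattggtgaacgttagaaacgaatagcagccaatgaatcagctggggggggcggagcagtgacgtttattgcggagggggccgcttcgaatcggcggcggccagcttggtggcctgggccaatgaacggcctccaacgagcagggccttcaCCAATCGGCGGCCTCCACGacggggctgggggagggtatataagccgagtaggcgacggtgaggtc
The ERSE was searched on both strands as CCAAT and CCACG spaced by 9 bases. It is rare: 26 of 35116 promoters in the RefSeq table hold it (0.074%), and 14 tested genes do, among them 5 of the 22 ER chaperones with a promoter in the table (22.7%). Of these 14 genes 13 were lower at 10 mM and 1 was higher. This count describes the genes that could be matched to a promoter (77.3% of those tested) and is set against no rate over all genes. The sites are aligned here, from the largest decrease to the only increase, to show what is fixed (capitals) and what varies between them. HSP90B1 holds 2 sites.
HSPA5: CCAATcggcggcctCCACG
XBP1: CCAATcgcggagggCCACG
FICD: CCAATgggagtggcCCACG
CRELD2: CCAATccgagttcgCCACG
ERO1LB: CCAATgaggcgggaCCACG
SERP1: CCAATtcgctgtctCCACG
HSP90B1: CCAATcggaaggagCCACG
HSP90B1: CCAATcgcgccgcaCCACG
CALR: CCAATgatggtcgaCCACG
TMEM120A: CCAATggggaaaggCCACG
ALG12: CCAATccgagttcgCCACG
EIF2A: CCAATtcgctgtctCCACG
TRIM5: CCAATggcatttctCCACG
CANX: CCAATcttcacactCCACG
ZNF17: CCAATgaagcccctCCACG
The genes are not all independent. CRELD2 and ALG12 share the site at chr22:49918554-49918572, and SERP1 and EIF2A share the site at chr3:150546710-150546728, each pair being read from opposite strands, so the 15 matches stand at 13 positions. In both pairs both genes were lower (CRELD2 -2.30 and ALG12 -1.10, SERP1 -1.80 and EIF2A -0.92). Others act in the ER or its stress response: XBP1 (-2.61), FICD (-2.33), ERO1LB (-2.13) and CANX (-0.81). TMEM120A (-1.26) and TRIM5 (-0.91) are in none of the ER lists used here, and the zinc finger gene ZNF17 was the only one higher (0.21). A second form, ERSE-II, searched as ATTGG and CCACG spaced by 1 base after values had been seen, is held by 11 tested genes, of which 7 were lower, 3 higher and 1 not called.

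**Figure D2:**
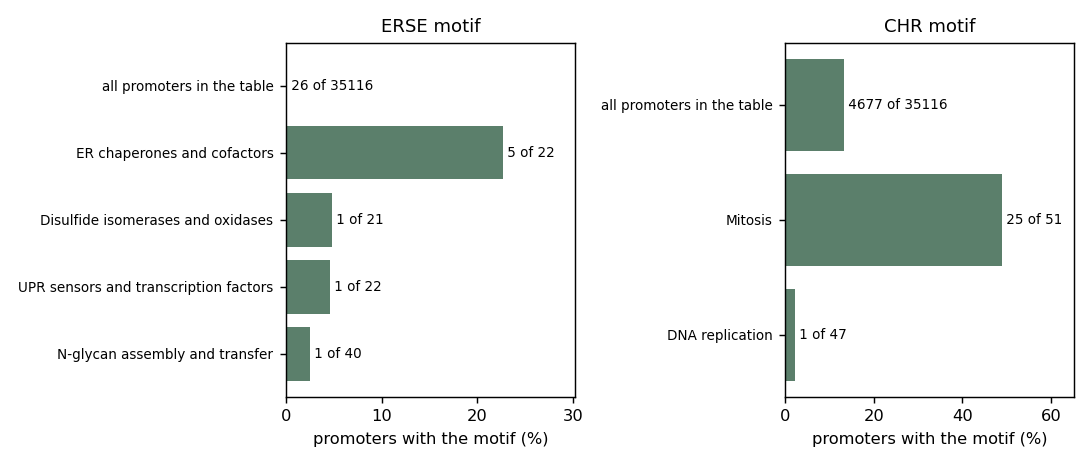
Share of promoters (250 bases before the start) that hold the ERSE or the CHR motif, in percent, for all promoters in the RefSeq table and for gene lists. The numbers beside the bars are promoters with the motif of promoters searched, such as 5 of 22 ER chaperones for the ERSE and 25 of 51 mitosis genes for the CHR.

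The rest of the secretory route was lower too, by smaller steps. Of 23 disulfide isomerases and oxidases 17 were lower and 3 higher, with PDIA4 (2213 ± 118 to 557 ± 16.8 CPM, log2 -1.99 ± 0.06), PDIA3 (-1.34 ± 0.06) and the oxidase ERO1LB (-2.13 ± 0.07) falling most among those averaging at least 5 CPM, and TMX1 rising (0.33 ± 0.06). Of 25 translocon and signal peptide genes 20 were lower and 1 higher. The signal peptidase subunit SEC11C (-2.05 ± 0.08), the translocon partner TRAM1 (-1.39 ± 0.06) and SSR3 (-1.20 ± 0.05) fell, and SRP9 of the signal recognition particle rose (0.52 ± 0.06). Of 41 genes of COPI and COPII vesicles 34 were lower and 1 higher, but only 3 by 2-fold: SEC24D (-1.72 ± 0.06) and SEC23B (-1.21 ± 0.05) of the COPII coat and the cargo receptor TMED7 (-1.24 ± 0.07). SAR1B was the exception (0.16 ± 0.05), a call that was lost without 1 mM replicate 1 (edgeR adjusted p = 0.0634). Of 36 genes of ER-associated degradation, which removes misfolded proteins, 22 were lower and 7 higher. The ubiquitin ligase adaptor SEL1L had 770, 849, 525 and 709 CPM at 1 mM and 171, 182, 165 and 176 CPM at 10 mM (-2.04 ± 0.12). DERL3 fell by -3.13 ± 0.11, and MAN1A1, a mannosidase, rose (0.46 ± 0.11).

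HERPUD1, an ER membrane protein of the same degradation route, fell from 424, 416, 499 and 459 CPM to 25.5, 25.7, 26.6 and 28.2 CPM, or 17-fold (log2 -4.08 ± 0.07, edgeR adjusted p = 9.4e-15). Its promoter is shown because it holds elements of 2 branches of the UPR. The 250 bases are chr16:56931892-56932141 on the plus strand of GRCh38.p14 (RefSeq). In capitals are a match to the ATF4 element TGATGNAA, read on the opposite strand, 176 to 169 bases before the start, and an ERSE-II 117 to 107 bases before it.
HERPUD1: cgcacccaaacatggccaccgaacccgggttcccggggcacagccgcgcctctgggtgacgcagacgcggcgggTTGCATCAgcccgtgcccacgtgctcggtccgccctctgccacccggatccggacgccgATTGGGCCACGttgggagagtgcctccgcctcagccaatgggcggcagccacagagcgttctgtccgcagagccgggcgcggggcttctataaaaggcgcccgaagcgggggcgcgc

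Among the UPR sensors and transcription factors, 18 of 22 tested genes were lower and 2 higher, and 12 were lower by at least 2-fold. The spliced factor's gene XBP1 had 460, 439, 499 and 478 CPM at 1 mM and 76.4, 75.2, 76.3 and 79.1 CPM at 10 mM (log2 -2.61 ± 0.06). ATF4, which is controlled mainly at translation, also fell in transcript level, from 1064 ± 111 to 334 ± 11.5 CPM (-1.67 ± 0.08). Large decreases in the same list were those of DDIT3 (CHOP), the death factor, from 728, 674, 863 and 779 CPM to 34.8, 32.4, 34.7 and 34.2 CPM (-4.48 ± 0.10), of the pseudokinase TRIB3 (-4.38 ± 0.08) and of ATF3 (-3.81 ± 0.08). MBTPS2, a protease that releases ATF6, was slightly higher (0.21 ± 0.07, edgeR adjusted p = 0.0189). That call was lost without 1 mM replicate 4 (adjusted p = 0.0573), without 10 mM replicate 4 (0.0502) and with length and GC trends removed (0.546).

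**Figure D3:**
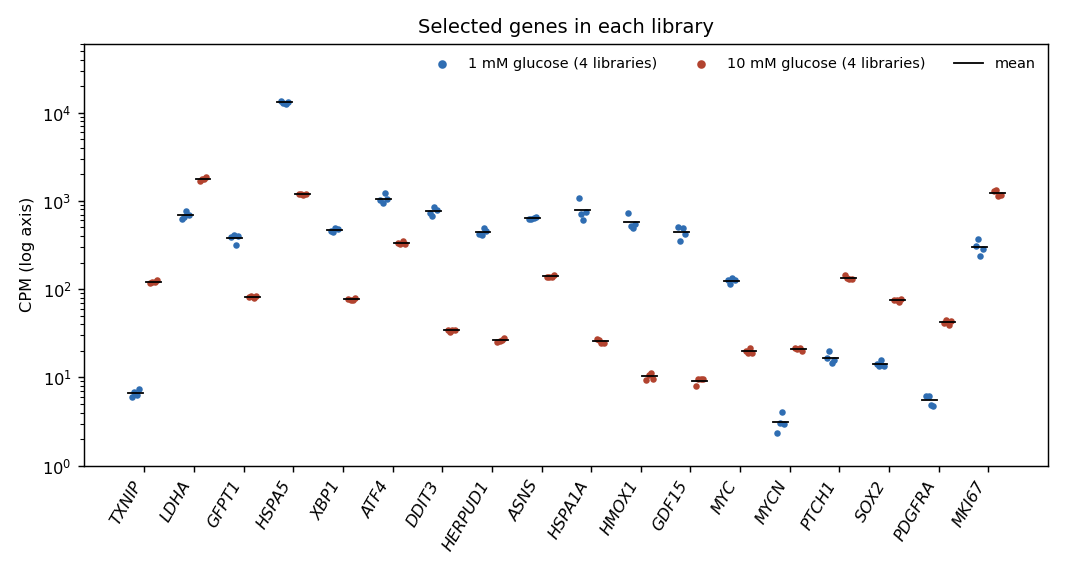
CPM of 18 genes in each of the 8 libraries on a log axis, blue for 1 mM and red for 10 mM glucose, with the mean of each group as a line. The groups do not overlap in any of the 18, and HSPA5 spans from 13042 CPM (mean at 1 mM) to 1183 CPM.

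Many genes that supply and load amino acids were lower at 10 mM. Of 27 tested genes of serine, folate, asparagine and proline synthesis 18 were lower and 4 higher, and 14 were lower by 2-fold (median -1.16). ASNS, which makes asparagine, had 618, 630, 648 and 652 CPM at 1 mM and 136, 139, 136 and 146 CPM at 10 mM (log2 -2.19 ± 0.06). The promoter of ASNS, chr7:97872409-97872658 on the minus strand of GRCh38.p14 (RefSeq), is shown for its ATF4 element, in capitals 68 to 61 bases before the start.
ASNS: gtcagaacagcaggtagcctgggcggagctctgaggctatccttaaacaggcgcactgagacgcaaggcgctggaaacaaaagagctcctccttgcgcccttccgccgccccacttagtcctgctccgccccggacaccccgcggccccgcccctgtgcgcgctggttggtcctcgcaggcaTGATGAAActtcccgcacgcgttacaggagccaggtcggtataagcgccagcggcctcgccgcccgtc
The same pattern TGATGNAA, searched on both strands, is held by 3.14% of all promoters and by 3 of 22 UPR factor promoters (13.6%). Among the 170 tested genes known to hold it from the same partial match, 55 were lower, 59 higher and 56 not called, so no direction prevailed. The heat shock element, GAA, TTC and GAA spaced by 2 bases, is held by 37 tested genes. Of these 13 were lower, 8 higher and 16 not called.

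CTH, which makes cysteine from cystathionine, fell most in the amino acid list, from 45.7 ± 1.97 to 5.15 ± 0.735 CPM (log2 -3.15 ± 0.08). Folate enzymes, compared by compartment after their values were seen, went opposite ways. The mitochondrial enzymes MTHFD2 (726 ± 17.2 to 146 ± 3.94 CPM, -2.31 ± 0.05), ALDH1L2 (-2.13), SHMT2 (-1.45) and MTHFD1L (-1.22) fell. The cytosolic and nuclear enzymes TYMS, which makes thymidylate (101 ± 12.8 to 225 ± 9 CPM, 1.15 ± 0.08), SHMT1 (0.99) and MTHFD1 (0.23) rose. The tRNA synthetases, which load amino acids onto tRNA, are listed by compartment as well. Of 20 cytosolic enzymes 18 were lower and 0 higher, and 7 were lower by 2-fold, while of 17 mitochondrial enzymes 5 were lower, 5 higher and none by 2-fold. GARS, which also serves mitochondria, had 1135, 1122, 1161 and 1186 CPM at 1 mM and 322, 323, 323 and 329 CPM at 10 mM (-1.83 ± 0.04), and WARS and SARS fell alike (-1.83 ± 0.05 and -1.69 ± 0.06). In the mitochondrial set LARS2 rose (0.56 ± 0.06) and WARS2 fell (-0.94 ± 0.06). The median was -0.76 for cytosolic enzymes and -0.04 for mitochondrial ones, and the second changed sign with library totals (0.10).

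**Figure D4:**
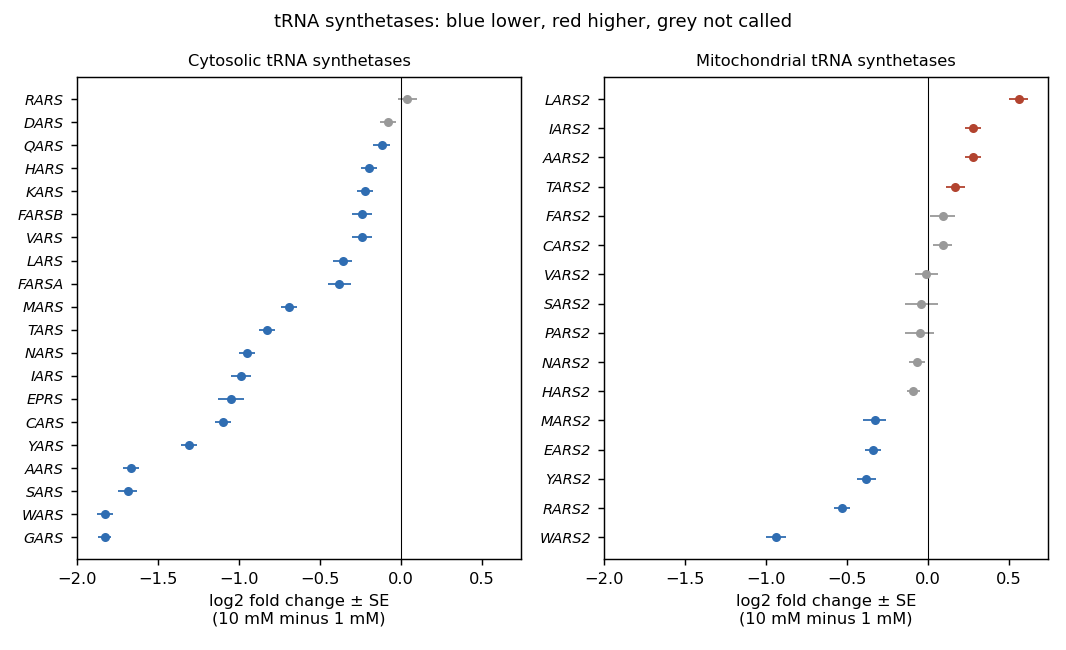
Log2 fold change at 10 mM minus 1 mM glucose with its SE for cytosolic (left) and mitochondrial (right) tRNA synthetases, blue where called lower, red where called higher and grey where not called. The cytosolic enzymes lie between -1.83 and 0.04 and the mitochondrial ones shown between -0.94 and 0.56.

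Of 22 amino acid transporters 12 were lower and 3 higher, 10 of the former by 2-fold. The share called (68.2%) was near the 67.5% of all genes, while 6.81% of all genes were lower by 2-fold. SLC3A2, the shared heavy chain, fell from 1333 ± 116 to 310 ± 12.8 CPM (log2 -2.10 ± 0.07), and the cystine carrier SLC7A11 (-1.81 ± 0.14) and the glycine carrier SLC6A9 (-2.03 ± 0.07) fell too. The glutamate carrier SLC1A3 rose (1.26 ± 0.07). Among 23 regulators of mTORC1 and AMPK, the nutrient-sensing kinases, 12 were lower and 7 higher. SESN2, which restrains mTORC1 when leucine is low, had 286, 268, 289 and 290 CPM at 1 mM and 23.3, 23.6, 23.2 and 22.7 CPM at 10 mM, a fall of 12.2-fold (-3.61 ± 0.05). The AMPK subunit PRKAB2 fell (-1.54 ± 0.08), and EIF4EBP2, a translation repressor under mTORC1, rose (1.19 ± 0.06).

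Stress genes outside the ER had some of the largest decreases. HSPA6, a heat shock protein that is nearly silent without stress, had 599, 352, 293 and 358 CPM at 1 mM and 5.57, 5.52, 5.94 and 5.75 CPM at 10 mM (log2 -6.14 ± 0.26). HSPA1A had 1065, 703, 612 and 743 CPM and then 27.1, 26.5, 24.4 and 24.3 CPM (-4.93 ± 0.18). At 1 mM replicate 1 was the highest library for both, and no library at 10 mM came near. HSPA1B (-4.94 ± 0.17) is a near-identical copy of HSPA1A, so reads may be split between them. Of 33 cytosolic chaperones tested 21 were lower and 3 higher, against 33.8% lower and 33.7% higher over all genes. By 2-fold 9 were lower, against 6.81% of all genes, and the list median was -0.34. The decrease did not reach every member: the constitutive HSPA8 (-0.08) and HSPB1 (0.01), picked after their values were seen, were not called. HSPA14, a ribosome-bound relative, rose (0.86 ± 0.08). Of 24 targets of NRF2, the oxidant sensor, 20 were lower and 2 higher, 11 of the former by 2-fold. Heme oxygenase HMOX1 had 737, 514, 491 and 541 CPM at 1 mM and 9.29, 10.7, 11.3 and 9.68 CPM at 10 mM (-5.80 ± 0.17). OSGIN1 (-2.57 ± 0.09) and TRIM16 (-1.97 ± 0.06) fell too, and the reductase AKR1C1 was slightly higher (0.33 ± 0.08), a call that was lost with length and GC trends removed (0.06). Metallothioneins and zinc carriers, by contrast, had 1 higher and 2 lower of 7 tested, a share called (42.9%) under the 67.5% of all genes. MT1X was at -0.40 ± 0.10 and SLC30A1, the zinc exporter, at -0.59 ± 0.12.

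Secreted factors that stressed cells release had the lowest median of the lists, -2.0, with 19 of 23 tested lower and 16 of these by 2-fold. GDF15 fell from 505, 355, 499 and 420 CPM to 7.93, 9.62, 9.66 and 9.64 CPM (log2 -5.59 ± 0.14, edgeR adjusted p = 2.7e-13). The EGF receptor ligand HBEGF fell by -4.30 ± 0.09 and the glycoprotein hormone STC2 from 830 ± 32 to 59.8 ± 4.26 CPM (-3.79 ± 0.06). TGFA, another ligand of the same receptor, rose from 311 ± 18.5 to 861 ± 39.2 CPM (1.47 ± 0.06), so the 2 ligands changed in opposite directions. Among genes averaging at least 5 CPM the largest fall in ratio was that of IL1RL1, the interleukin-33 receptor, at 126, 101, 81.5 and 102 CPM and then 0.464, 0.726, 0.693 and 0.655 CPM (-7.32 ± 0.19). KLHDC7B, SPRR2D, C9orf150, the sodium channel SCN9A, the keratin KRT17 and the lipid receptor S1PR1 were also among the 12 largest decreases above that level, from -6.64 to -4.56. PRR9 and MIR27A, singled out after their values were seen, had counts at 1 mM (108 and 68 over the 4 libraries) and 0 in all 4 libraries at 10 mM. With a floor of 3 counts over the group, they were at least 35.7-fold and 22.5-fold lower.

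Of 43 autophagy and lysosome genes 23 were lower and 7 higher, a share called (69.8%) near the 67.5% of all genes. By 2-fold 4 were lower and 0 higher, against 6.81% and 6.84% of all genes. The decreases named next were picked by size under the naming rule. WIPI1, which marks the forming membrane, fell from 140 ± 3.63 to 21.1 ± 1.4 CPM (log2 -2.73 ± 0.06), the cargo receptor SQSTM1 from 1726 ± 120 to 345 ± 17.6 CPM (-2.32 ± 0.07) and the membrane tag MAP1LC3B from 271 ± 16.2 to 60.7 ± 2.14 CPM (-2.16 ± 0.06). The initiating kinase ULK1 was higher (0.39 ± 0.08), a call that was lost with length and GC trends removed (0.06). The median over the list was -0.17.

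Immediate early genes and feedback regulators of the MAP kinase route were all called, 25 lower and 5 higher of 30. FOSB (30.1 ± 3.33 to 1.9 ± 0.134 CPM, log2 -3.98 ± 0.11) and the phosphatases DUSP1 (-3.06 ± 0.09) and DUSP5 (-2.98 ± 0.07) fell most, and the RAS inhibitor SPRED1 rose (0.74 ± 0.07). Of 13 Kruppel-like factors 9 were lower and 2 higher. KLF5 had 206, 218, 190 and 221 CPM at 1 mM and 35.7, 39.4, 36.7 and 38.9 CPM at 10 mM (-2.47 ± 0.06). KLF4 fell similarly (-2.26 ± 0.07), whereas KLF12 rose (0.86 ± 0.15). Of 20 NF-kB subunits, inhibitors and feedback genes 11 were lower and 3 higher, a share called (70%) near the 67.5% of all genes. NFKBIZ (-1.85 ± 0.09), the death receptor TNFRSF10B (-1.58 ± 0.06) and BIRC3 (-1.53 ± 0.10) fell, and BCL3 rose (1.07 ± 0.13).

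MYC and MYCN, related factors that drive growth, changed in opposite directions. MYC had 128, 113, 133 and 126 CPM at 1 mM and 19.7, 19, 21.3 and 19.1 CPM at 10 mM, a fall of 6.31-fold (log2 -2.66 ± 0.06, edgeR adjusted p = 1.6e-13). MYCN had 2.36, 3.04, 4.02 and 2.94 CPM at 1 mM and 21.4, 21.1, 21.3 and 20 CPM at 10 mM, an increase of 6.76-fold (2.76 ± 0.13). At 10 mM the CPM of both genes lay within 19 to 21.4, although CPM are not per length and do not compare transcript numbers between genes.

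Cell division genes were higher at 10 mM. All 58 mitosis genes tested were called higher, 40 of them by at least 2-fold, against 6.84% of all genes, and their summed level went from 6182 ± 276 to 14185 ± 391 CPM. MKI67, the proliferation marker, had 309, 368, 235 and 286 CPM at 1 mM and 1312, 1327, 1132 and 1162 CPM at 10 mM (log2 2.04 ± 0.16). The kinesin KIF20A (2.04 ± 0.07) and the separase ESPL1 (1.78 ± 0.09) rose by similar amounts. Of 52 DNA replication genes 43 were higher and 3 lower, but only 8 by 2-fold, so the median (0.66) was below that of mitosis (1.19). GINS1 (1.35 ± 0.06), MCM10 (1.36 ± 0.07) and the checkpoint mediator CLSPN (1.40 ± 0.10) rose. CDC6, the loader of the replicative helicase, went against its list, with 233, 236, 217 and 245 CPM at 1 mM and 114, 116, 120 and 122 CPM at 10 mM (-0.98 ± 0.05). The E2F factors also differed: the activator E2F2 rose from 8.39 ± 1.05 to 40.9 ± 0.868 CPM (2.28 ± 0.11) and the repressor E2F8 rose (1.72 ± 0.07), while the repressor E2F7 fell from 182 ± 30.7 to 86.7 ± 2.59 CPM (-1.07 ± 0.10). CDKN1A (p21), the inhibitor of cyclin-dependent kinases, fell (-0.82 ± 0.06).

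Mitosis genes are known to carry the cell cycle homology region (CHR), TTTGAA, where the DREAM complex binds. Among the 51 mitosis genes that could be matched to a promoter, 25 hold it on either strand (49%), against 13.3% of all promoters in the table and 1 of 47 DNA replication genes (2.13%). Within the mitosis list it did not go with the size of the increase: the median was 1.23 for the 25 genes with the motif and 1.16 for the 26 without. The MKI67 promoter, the one of the largest increase among those that hold it, is shown with its 2 matches in capitals, 47 to 42 and 29 to 24 bases before the start. It spans chr10:128126424-128126673 on the minus strand of GRCh38.p14 (RefSeq).
MKI67: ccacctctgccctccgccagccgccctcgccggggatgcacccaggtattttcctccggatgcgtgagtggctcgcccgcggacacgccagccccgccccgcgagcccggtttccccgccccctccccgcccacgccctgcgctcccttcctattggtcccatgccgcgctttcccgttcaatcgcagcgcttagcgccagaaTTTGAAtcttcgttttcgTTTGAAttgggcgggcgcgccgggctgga

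Ribosomal protein genes of the cytosol were lower as a block, by small and even steps. Of 78 tested genes 77 were lower and 0 higher, only 2 by 2-fold, and the summed level was 32465 ± 4099 CPM at 1 mM and 19864 ± 796 CPM at 10 mM. RPL3 had 681, 612, 740 and 671 CPM and then 324, 328, 360 and 346 CPM (log2 -0.99 ± 0.07). RPS27 fell by -1.24 ± 0.15. These genes have short transcripts and many pseudogenes that may take reads. With the length and GC trends removed 77 were lower and 1 higher (median -0.62 in place of -0.70), and with library totals 73 and 1 (-0.55). Leaving out each library in turn gave medians of -0.76 to -0.61. The elongation factors EEF1A1 (1835 ± 81.4 to 894 ± 21.4 CPM, -1.04 ± 0.06) and EEF2 (-1.01 ± 0.05) fell by a like amount. Mitochondrial ribosomal proteins and the nuclear genes of the respiratory chain changed less. Of 75 and 76 tested, 44% and 48.7% were called, under the 67.5% of all genes. In turn 27 and 31 were lower and 6 and 6 higher, none by 2-fold, against 33.8% lower and 33.7% higher over all genes. The median was -0.16 in both. That balance depended on scaling: with library totals 23 and 12 were lower and 16 and 12 higher, with medians of -0.01 and -0.02. MRPS30 (-0.75 ± 0.05) and NDUFS8 (-0.63 ± 0.14) fell, and MRPL35 (0.56 ± 0.05) and NDUFB3 (0.30 ± 0.08) rose.

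Around the mitochondrial entry of carbon, PCK2, which turns oxaloacetate into phosphoenolpyruvate in mitochondria, fell from 109 ± 7.86 to 25.7 ± 1.02 CPM (log2 -2.09 ± 0.06). PDK3, a kinase that shuts pyruvate dehydrogenase, rose (1.24 ± 0.08), and PDP1, the phosphatase that opens it, fell from 282 ± 38.8 to 119 ± 2.15 CPM (-1.24 ± 0.08). The TCA list as a whole had 7 higher and 12 lower of 34 tested (median -0.03), a share called (55.9%) under the 67.5% of all genes. With library totals the list had 12 higher and 9 lower (0.11). In the main fit 8 of its members had a 95% interval within 0.2 of 0 (log2), a property of 756 genes overall (5.24%). Sterol and fatty acid synthesis was higher in 22 and lower in 8 of 39 tested genes, with a median of 0.27. The desaturase SCD5 rose from 4.76 ± 0.763 to 10.8 ± 0.291 CPM (1.17 ± 0.10), while the elongase ELOVL7 fell (-1.33 ± 0.10). Purine and pyrimidine genes were divided, with 8 higher and 10 lower of 22, as were all genes (33.7% higher and 33.8% lower). Their share called was 81.8%, against 67.5% of all genes. IMPDH2 (-0.72 ± 0.06) and ADSL (-0.54 ± 0.06) of purine synthesis fell, and CTPS2 of pyrimidine synthesis rose (0.63 ± 0.10).

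**Figure D5:**
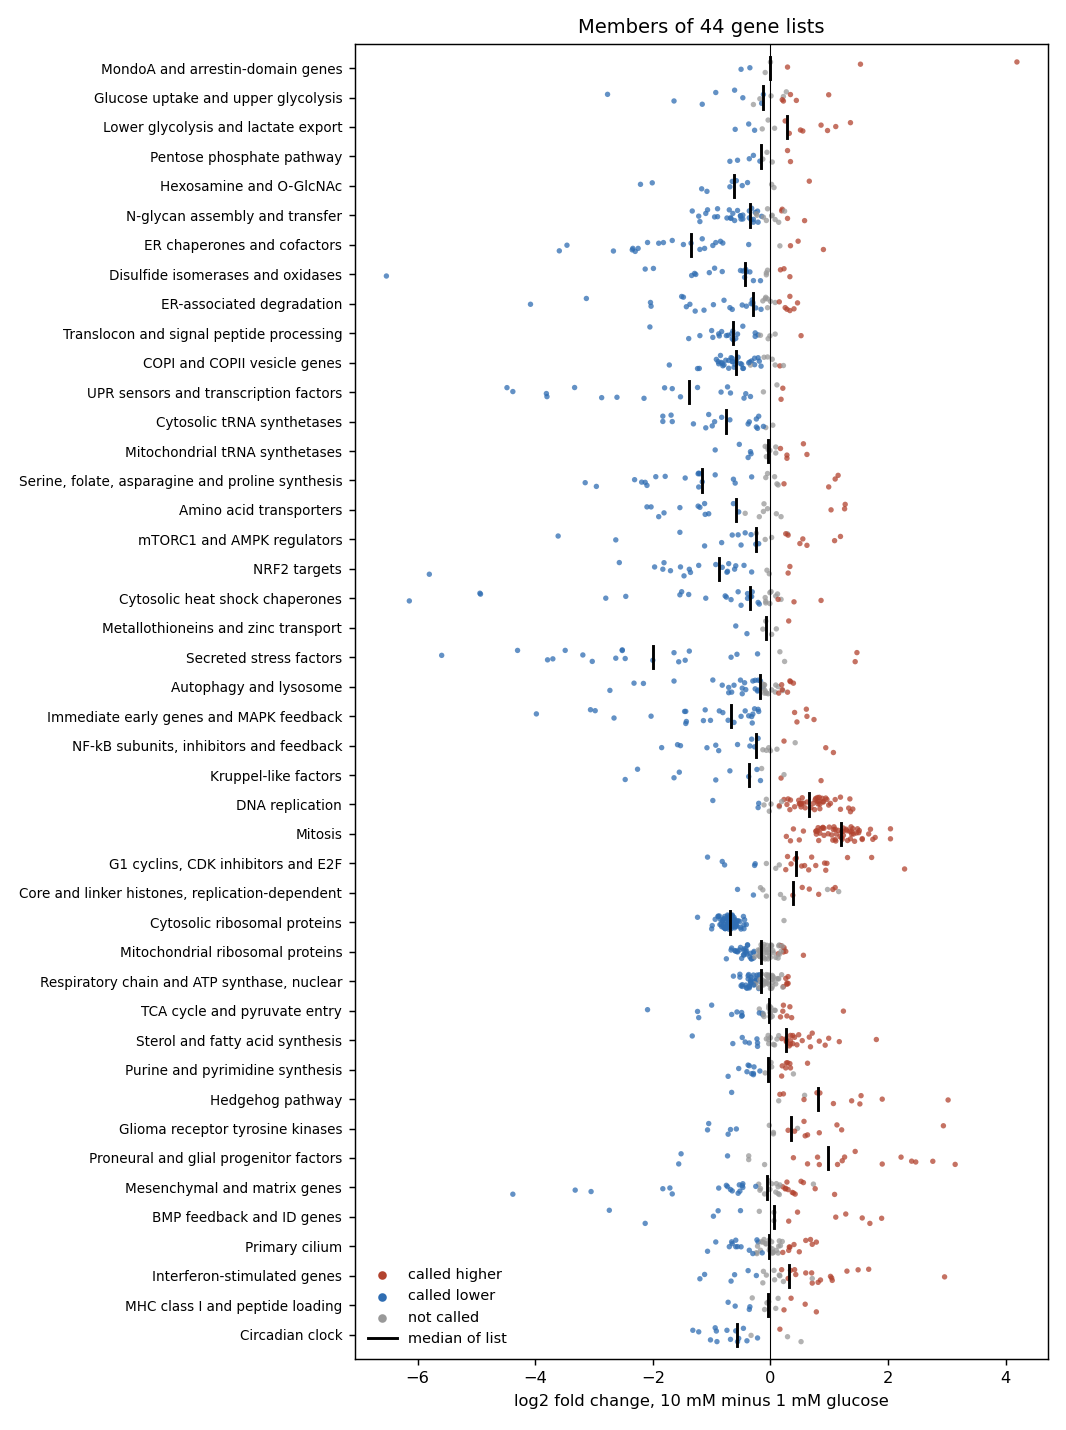
Log2 fold change at 10 mM minus 1 mM glucose (horizontal axis) of every tested member of 44 gene lists, blue where called lower, red where called higher, grey where not called, with the list median as a black line. Medians reach -2.0 for secreted stress factors and 1.19 for mitosis.

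Developmental signalling genes were among the largest increases. Of 14 tested Hedgehog pathway genes 11 were higher and 1 lower, 6 of the former by 2-fold. PTCH1, the receptor and a direct target of the pathway, had 16.7, 19.7, 14.4 and 15.7 CPM at 1 mM and 145, 134, 130 and 130 CPM at 10 mM, an increase of 8.12-fold (log2 3.02 ± 0.13). GLI3 (1.52 ± 0.11) and the co-receptor GAS1 (1.54 ± 0.09) rose. GLI1, the usual readout, rose from 0.755 ± 0.269 to 2.85 ± 0.655 CPM (1.90 ± 0.25), at a level where each library had few counts. The co-receptor CDON fell (-0.66 ± 0.11). Among 18 receptor tyrosine kinases of glioma 9 were higher and 5 lower (median 0.35), which turned to 7 higher and 8 lower with length and GC trends removed (0.12). PDGFRA had 6.15, 6.08, 4.91 and 4.77 CPM at 1 mM and 40.9, 44.7, 39.3 and 43.3 CPM at 10 mM (2.94 ± 0.10). FGFR3 (1.21 ± 0.08) and ERBB3 (1.13 ± 0.08) rose, and EPHA2 fell (-1.07 ± 0.06).

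Proneural and glial progenitor factors were higher in 14 and lower in 3 of 20 tested genes, 10 of the former by 2-fold, with a median of 0.98. The stem cell factor SOX2 had 14.3, 13.6, 15.9 and 13.6 CPM at 1 mM and 75.6, 75.5, 72.3 and 78.3 CPM at 10 mM (log2 2.40 ± 0.06). ATOH8 rose from 4.76 ± 1.3 to 42.2 ± 1.69 CPM (3.14 ± 0.13). OLIG2 fell from 24.9 ± 2.13 to 8.47 ± 0.79 CPM (-1.56 ± 0.08). Of the oligodendrocyte markers 4 of 5 tested were higher and 0 lower, with CNP (142 ± 17.8 to 318 ± 5.75 CPM, 1.16 ± 0.07) and UGT8 (1.38 ± 0.07), and the list's summed level went from 305 ± 31.4 to 633 ± 3.33 CPM. The defining myelin genes MBP, MOG and MOBP stayed under the filter, at 0 to 13 counts per library. Neuron markers had 1 higher and 1 lower of 4 tested, SNAP25 (0.88 ± 0.06) and SYT1 (-2.10 ± 0.09), and a summed level of 148 ± 11.3 and 65.9 ± 4.25 CPM, with GAD2, SLC17A6 and STMN2 at 0 counts in all 8 libraries. Among microglia, blood and endothelial markers 4 of 14 were tested, of which 2 were higher (both under 1 CPM) and 1 lower, with a summed level of 59.3 ± 4.58 and 21.9 ± 1.82 CPM. HBA1 and HBB were at 0 counts in all 8 libraries, and the lysosomal protein CD68 fell from 58.5 ± 4.51 to 20.4 ± 1.91 CPM (-1.52 ± 0.08). The part of such markers in the results above was not tested.

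Mesenchymal and matrix genes showed no common direction, with 12 higher and 18 lower of 44 tested, a share called (68.2%) near the 67.5% of all genes. Their median was -0.06 and turned to 0.08 with library totals. CYR61 (386 ± 35.2 to 46.8 ± 3.88 CPM, log2 -3.05 ± 0.08) and CTGF (-1.83 ± 0.07) fell, and the integrin ITGB3 rose (1.09 ± 0.13). BMP feedback and ID genes had 7 higher and 5 lower of 15, against 33.7% higher and 33.8% lower over all genes. The decoy receptor BAMBI rose from 63.6 ± 9.01 to 236 ± 5.18 CPM (1.89 ± 0.08) and ID3 rose (1.69 ± 0.11), while the ligand BMP2 fell from 64.7 ± 3.55 to 14.8 ± 1.61 CPM (-2.13 ± 0.08). Primary cilium genes, where Hedgehog signals are received, had 10 higher and 14 lower of 47, a share called (51.1%) under the 67.5% of all genes. Their median was -0.02, which turned to 0.12 with library totals. TCTN2 rose (0.78 ± 0.07), and B9D1 (-1.07 ± 0.11) and IQCB1 (-0.93 ± 0.06) fell.

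Of 32 interferon-stimulated genes 17 were higher and 6 lower, a share called (71.9%) near the 67.5% of all genes. OAS3 (48.5 ± 2.58 to 100 ± 3.96 CPM, log2 1.04 ± 0.08) and PARP9 (1.02 ± 0.08) rose, and the factor IRF1 fell (-1.12 ± 0.07). Antigen presentation genes were divided, as were all genes, with 4 higher and 4 lower of 14. Their share called (57.1%) was under the 67.5% of all genes. The immunoproteasome subunit PSMB9 rose (0.78 ± 0.11), and the trimming peptidase ERAP1 fell (-0.60 ± 0.09). Of 18 circadian clock genes 14 were lower and 1 higher. C1orf51 (CIART) fell from 21.2 ± 0.8 to 8.46 ± 0.532 CPM (-1.32 ± 0.08), NR1D1 by -1.22 ± 0.09 and PER2 by -1.02 ± 0.08. BHLHE40 was slightly higher (0.16 ± 0.05), which turned to -0.01 with length and GC trends removed. With 1 time point, phase and level of the clock cannot be told apart.

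Among 18 tested genes often used to normalise PCR 8 were lower and 5 higher, a share called (72.2%) near that of all genes (67.5%). By at least 2-fold 1 was lower and 0 higher, against 13.7% of all genes. ACTB had 6504, 6093, 8236 and 6762 CPM at 1 mM and 4909, 4697, 5255 and 4832 CPM at 10 mM (log2 -0.49 ± 0.08). EEF1A1 and RPL13A (-0.82 ± 0.09) fell, and PGK1 rose. TBP was 19.3 ± 0.725 and 20.4 ± 0.78 CPM and was not called (0.08 ± 0.06, edgeR adjusted p = 0.284), though with library totals it was (0.22, adjusted p = 0.00823). The narrowest intervals around no change, by the main scaling, were those of genes such as APLP2 (691 ± 18.5 and 692 ± 7.4 CPM, 95% interval -0.09 to 0.09), CNOT2 (-0.09 to 0.10) and KLC1 (-0.09 to 0.10).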

How the data were processed

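RNA of LN229 cells was sequenced by standard Illumina protocols after Trizol extraction, per the labels' protocols. The authors deposited raw counts per RefSeq transcript, as whole numbers with no normalization. The build is hg19, per the submitters' processing notes; the aligner, counter and strand setting are not given in the sources at hand, so antisense and overlapping genes cannot be told apart. For each gene the transcript marked by the authors was used (20895 of 22257 genes), otherwise the one with the highest total.

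The test was the quasi-likelihood F test of edgeR 4.0.16 under R 4.3.3, after filterByExpr and TMM scaling, on all 12 libraries with 1 mean per group and Benjamini-Hochberg adjustment over 14416 genes. Depth of 24.4 to 26.7 megacounts and a biological coefficient of variation of 8.51% set the precision. The code was tested on simulated data. Alternatives were DESeq2 1.42.0 size factors and Wald test, library totals, limma-voom (limma 3.58.1), no filter, a mean of 5 CPM, only the 8 libraries, the replicate number as a block, the highest-total transcript, removal of length and GC trends (spline, 5 degrees of freedom) alone or with that block, and each library left out. The comparison and the 49 gene lists were chosen with earlier results of these data known. A list is described by counts and medians, with no test. Its counts are to be read beside the share called over all genes (67.5%).

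Genes were named by a rule: the 12 highest and 12 lowest log2 changes and the 8 largest rises and falls in CPM among called genes averaging at least 5 CPM with groups that do not overlap, by the same limits 3 members per list and the strongest against its median, and a fixed set of 22 genes. Others are said to have been chosen after their values were seen, or hold an ERSE. Some genes that the rule names are not reported here. Promoters are the 250 bases before the first start listed per gene in a RefSeq table (GRCh38.p14), matched by symbol for 11150 of 14416 tested genes. At 77.3% this is under 80%, so a check of motifs over all tested genes is void: calls of genes that hold a motif are a description of the matched genes only, and list shares are given only for lists with at least 80% matched.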

Additional observations from a re-analysis of the deposited data

Results flagged for a closer look

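In 26 of 502 groups of 4 libraries (named genes and list sums at each dose), the highest or lowest library lay so far from the other 3 that its gap exceeded the 95% critical value of Dixon's ratio. Chance flags about 1 in 20 groups, so the number is close to what chance gives. No explanation was tested for any of them.

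At 1 mM glucose, replicate 3 was apart in 6. It was high for AKR1C1 (30.9 CPM), C1orf51 (22.4 CPM) and MT1X (14 CPM), and low for HSP90B1 (5171 CPM), the hexosamine sum (1578 CPM) and the ER-associated degradation sum (5730 CPM). Replicate 2 was low for SEC11C (152 CPM), SESN2 (268 CPM) and the MondoA and arrestin-domain sum (289 CPM), and replicate 4 was low for WARS2 (16.9 CPM).

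At 10 mM glucose, replicate 3 was high in 7: ID3 (138 CPM), MT1X (9.7 CPM), PSMB9 (24.1 CPM), SDF2L1 (32.7 CPM), SLC2A1 (210 CPM), SLC3A2 (329 CPM) and the immediate early gene sum (2237 CPM). Replicate 1 was low for GDF15 (7.93 CPM), KLHDC7B (0.155 CPM) and the G1 cyclin and E2F sum (2801 CPM), and high for PDIA4 (582 CPM) and TNFRSF10B (156 CPM). Replicate 4 was high for GARS (329 CPM), MRPS22 (41 CPM) and OSTC (76.6 CPM), and replicate 2 for CLSPN (105 CPM).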

How the results depend on the processing

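The count of called genes stayed within 1.5 times its main value of 9725 under all alternatives run, from 7988 with a filter at a mean of 5 CPM to 10658 with length and GC trends removed. Leaving out each library in turn gave 9087 to 9791, with 4229 higher and 4251 lower genes called each time. Counts past a minimum fold moved with the filter: at a mean of 5 CPM, 1177 genes passed 2-fold (560 higher, 617 lower) and 42 higher and 146 lower passed 4-fold, while with no filter 197 higher and 436 lower passed 4-fold. Genes shown to change little numbered 756, but 1420 with length and GC trends removed and 1352 when the replicate block was added, and 500 to 866 with a library left out, the lowest without 1 mM replicate 4 and the highest without 1 mM replicate 3.

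Medians changed sign under at least 1 alternative for 12 of 49 lists, all with a main median between -0.14 and 0.14. Among named genes, BHLHE40 turned to -0.01 with trends removed, with and without the block, and GAPDH, not called in any direction, turned to 0.10 with library totals and ran from -0.11 to 0.08 with a library left out, the highest without 1 mM replicate 3. The calls of AKR1C1, MBTPS2, ULK1 and SAR1B were each lost under at least 1 alternative (SAR1B without 1 mM replicate 1, adjusted p = 0.0634 in edgeR).

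The replicate numbers are shared between doses, but no label ties them to a batch or culture. Same-numbered libraries correlated at 0.0815, 0.195, 0.27 and 0.0646 in their deviations from the group means, and each correlated best with its own number, a hint from the data and not from the design. With the replicate block 9613 genes were called (4796 higher, 4817 lower), and 1958 by 2-fold. Lists with fewer than 3 members left under the 5 CPM filter (histones, and microglia, blood and endothelial markers) have no value there. Depth limits genes of few counts, such as GLI1.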
